A study of Mus musculus with 18 samples.

Results

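The 10 genes described here encode enzymes that make superoxide, hydrogen peroxide or nitric oxide, with their partner proteins: Nox1, Noxo1, Noxa1, Nox4, Cyba, Cybb, Ncf1, Duox2, Duoxa2 and Nos2. They were taken by gene name from a table of 36451 mouse genes, in which each of the 10 had a single entry. The table covers whole colon RNA from 3 groups with 6 libraries each, AKK, Model and Control, in a series on Akkermansia muciniphila, colitis and ferroptosis, a cell death driven by peroxidised lipids. AKK mice received this gut bacterium weekly for 6 weeks in 0.1 mL by gavage, at 1500000000 CFU (colony-forming units) per mL. For 1 week the drinking water of Model mice held 3% DSS (dextran sulfate sodium, an agent toxic to colon epithelium), and they had PBS by gavage. Control mice had no treatment stated. The strain and sex (C57BL/6J males) and the age of 6 weeks are written only for Control. DSS is written only for Model, so whether AKK mice also had it is not known from the sources used here. Nothing in the labels ties each library to its own animal, so p-values reflect library-to-library spread, which may be technical.

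NADPH oxidases pass electrons from NADPH across a membrane to oxygen. Cybb (also called Nox2) and its partner Cyba form the phagocyte oxidase, which is switched on when the organizer Ncf1 and other cytosolic subunits join it. Colon epithelium uses a parallel set, in which Nox1 pairs with Cyba and is switched on by the organizer Noxo1 and the activator Noxa1. Nox4 also pairs with Cyba but needs no organizer. Duox2 releases hydrogen peroxide at the epithelial surface and needs its maturation factor Duoxa2 to leave the endoplasmic reticulum. Nos2 is the inducible nitric oxide synthase of epithelium and macrophages.

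Total estimated counts ran from 60665457 to 82589848 in AKK, 58841661 to 79147073 in Model and 53873744 to 65705141 in Control libraries. The 4 deepest libraries were AKK_1306, AKK_1309, AKK_1310 and Model_1341. The epithelial marker Epcam was at 461 to 550 FPKM (fragments divided by transcript length and library size) in AKK, 130 to 585 FPKM in Model and 537 to 635 FPKM in Control libraries, so epithelium was present in each. Model_1337 stood apart, with its Epcam the lowest of all and 10 squamous epithelium genes summing to 6506 FPKM, against 7.62 to 100.3 FPKM in the other 17 libraries. Model_1341 drew 17.0% of its counts from mitochondrial genes, against 3.93% to 8.59% in the other 17. Library numbers do not overlap between groups, so a difference between cohorts cannot be told apart from the treatments. These are whole-tissue libraries, in which fewer cells of a type and less RNA per cell cannot be told apart.

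The sequence just before the RefSeq start is shown for Duox2 and Duoxa2, a head-to-head pair that moved together across libraries, and for Nox1, the 1 member that passed the main test. Each is the 250 bases before the RefSeq start on GRCm38.p6 (the mm10 build), 5′ to 3′ on the gene's own strand, at chr2:122298228-122298477 (minus strand) for Duox2, chr2:122298650-122298899 (plus strand) for Duoxa2 and chrX:134111855-134112104 (minus strand) for Nox1. The RefSeq starts of Duox2 and Duoxa2 lie 673 bases apart, on opposite strands. Gene spans in the deposited table, which are given below, begin elsewhere for some genes: the Duox2 span begins 222 bases upstream of its RefSeq start, 451 bases from that of Duoxa2, and the Nox1 span 110102 bases upstream. The Nox1 window and most of the Duox2 window therefore lie inside those spans, before the start of the RefSeq transcript and not of the span. Capitals mark matches to 4 motifs searched on both strands.
Duox2: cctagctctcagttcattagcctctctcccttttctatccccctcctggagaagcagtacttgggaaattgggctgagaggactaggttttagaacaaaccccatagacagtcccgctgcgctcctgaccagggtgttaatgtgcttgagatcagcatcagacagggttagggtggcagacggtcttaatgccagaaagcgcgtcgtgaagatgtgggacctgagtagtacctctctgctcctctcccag
Duoxa2: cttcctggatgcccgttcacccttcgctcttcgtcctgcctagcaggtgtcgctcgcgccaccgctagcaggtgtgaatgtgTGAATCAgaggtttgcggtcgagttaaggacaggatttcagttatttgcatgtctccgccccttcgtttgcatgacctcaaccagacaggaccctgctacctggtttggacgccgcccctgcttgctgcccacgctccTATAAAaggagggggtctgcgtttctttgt
Nox1: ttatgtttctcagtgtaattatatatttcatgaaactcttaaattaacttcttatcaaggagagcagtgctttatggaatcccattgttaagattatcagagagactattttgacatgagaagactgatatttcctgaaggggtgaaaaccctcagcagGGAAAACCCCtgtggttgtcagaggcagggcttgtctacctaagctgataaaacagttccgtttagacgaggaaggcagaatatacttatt
The motifs were TTCNNNGAA (bound by STAT factors), TGANTCA (AP-1), TATAAA (the TATA box) and the kappaB consensus (NF-kappaB), each match to the AP-1 motif being one on both strands. Duoxa2 held TGAATCA at 168 to 162 bases before its start and TATAAA at 30 to 25 bases before it. Nox1 held a kappaB match on the opposite strand, at 91 to 82 bases before its start, and Duox2 held no match. Over 32851 RefSeq windows of the same length, 7.02% had the STAT motif, 6.75% the AP-1 motif, 12.4% the TATA box and 7.25% the kappaB motif. A window was found for 9 of the 10 members, and Nos2 is named only. A match describes these letters and nothing about binding.

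Nox1 was the 1 member called among the 9 that passed the filter of 1 FPKM in 6 libraries. The gene (ENSMUSG00000031257, chromosome X, 134086421 to 134221956, minus strand) had a lowest, median and highest level of 7.15, 14.4 and 19.3 FPKM in AKK, 1.27, 7.44 and 14.8 FPKM in Model and 1.81, 3.52 and 6.74 FPKM in Control libraries. All 6 AKK libraries lay above all 6 Control libraries, and Model overlapped both. Nox1 averaged 13.6 ± 4.62 FPKM over AKK libraries, 7.78 ± 4.38 FPKM over Model libraries and 3.84 ± 2.05 FPKM over Control libraries (SD, n = 6 each). AKK against Control gave a log2 change of 1.72 ± 0.45 (SE, edgeR quasi-likelihood test, Benjamini-Hochberg adjusted p 0.0326), a 3.29-fold higher level. That was 1 of 9 members tested, where 6.2% of the 14007 genes tested were called in this comparison (3.72% higher), and 7.61% of genes had all AKK libraries above all Control libraries. DESeq2 and limma on log2(FPKM + 1) each called the same number of members, with adjusted p of 0.00237 and 0.0257 for Nox1. The edgeR call did not hold without any 1 of AKK_1302, AKK_1306, AKK_1309, AKK_1310, Control_2286, Control_2287 or Control_2288 (adjusted p 0.0576 to 0.0813), although the log2 change stayed between 1.56 and 1.94. Over all genes, those fits called from 292 (without Control_2286) to 812 (without Control_2287) in AKK against Control, against 869 in the main fit.

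The 3 AKK libraries among the 4 deepest held the 3 highest Nox1 levels of that group, 15.5 to 19.3 FPKM. The other 3 AKK libraries stood at 7.15, 9.45 and 13.2 FPKM, still above the 6.74 FPKM that was the Control maximum. Without the 4 deepest libraries the log2 change was 1.27 and was not called (edgeR adjusted p 0.372). In that fit, with 3 AKK libraries, 52 of 13693 genes were called in AKK against Control. Model against Control gave a log2 change of 0.98 ± 0.44 for Nox1 (SE, with edgeR adjusted p of 0.12), and 1.21 without Model_1337, which passed (edgeR adjusted p 0.0259). Leaving out each of the 18 libraries in turn gave 0.73 to 1.21, with that 1 call (edgeR adjusted p up to 0.264). DESeq2 and limma on log2(FPKM + 1) did not call Nox1 in Model against Control (adjusted p 0.0769 and 0.173). AKK against Model gave 0.74 ± 0.44 (SE, with edgeR adjusted p of 0.748).

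Genes that mark position along the colon moved with the groups in which Nox1 differed. The 10 such genes in the table summed to 103 to 733 FPKM in AKK, 63.7 to 288 FPKM in Model and 722 to 18108 FPKM in Control libraries. Of 8 tested, 3 (Reg3b, Reg3g and Fabp6) were called lower in AKK against Control, and the same 3 in Model against Control. Of all tested genes, 2.48% were called lower in AKK and 7.67% in Model against Control. Fabp6 rested on Control_2286, without which its log2 change was -1.40 in AKK and -0.90 in Model against Control (edgeR adjusted p 0.226 and 0.344). In AKK against Control the Reg3g and Reg3b calls ended without any 1 of 4 and 7 libraries. Colon epithelium genes summed to 5324 to 10219 FPKM in AKK, 1036 to 12275 FPKM in Model and 6161 to 15007 FPKM in Control libraries, and edgeR called 0 of 12 against Control (1 in AKK and 2 in Model at an unadjusted p under 0.05, with 1 called by DESeq2 in each and 0 by limma). Without Model_1337 edgeR called 2 of them lower in AKK and 1 lower in Model against Control. Of the squamous genes, 1 was tested and 0 were called by edgeR, DESeq2 or limma, with 0 at an unadjusted p under 0.05. The part of position and of tissue mix in the Nox1 values was not tested.

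**Figure D1:**
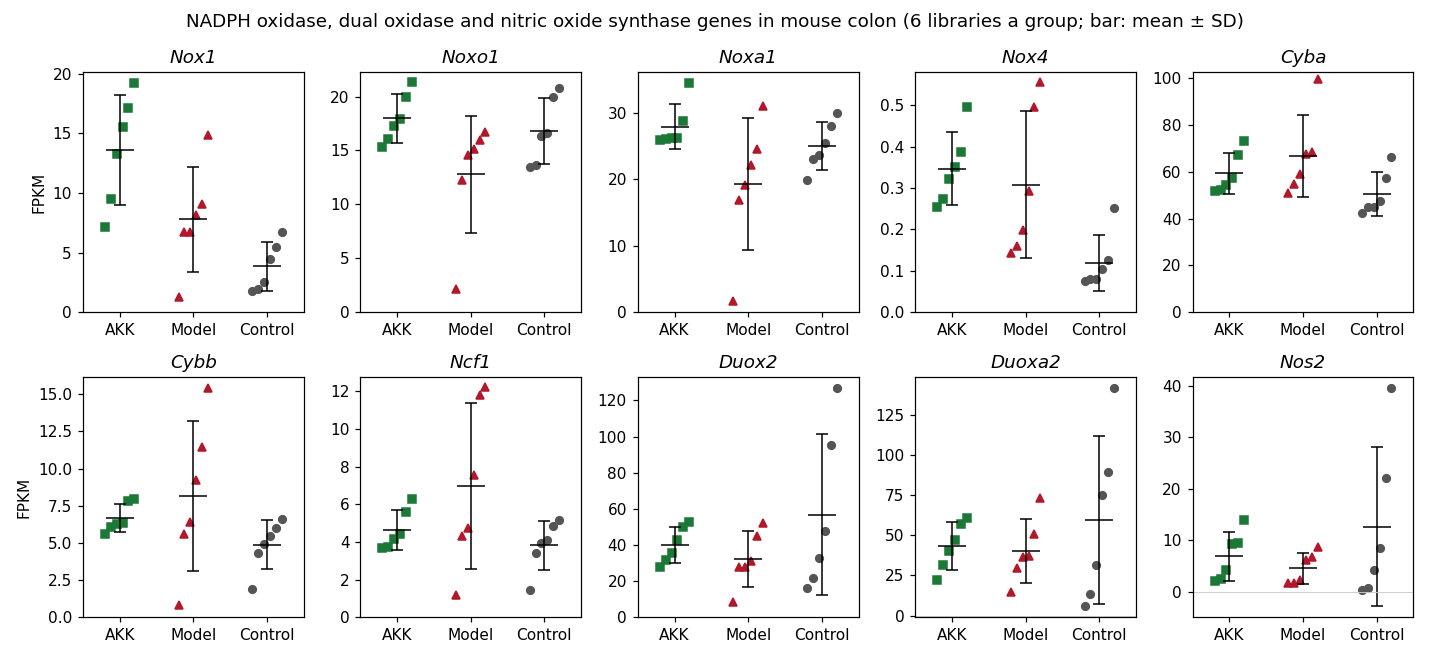
FPKM of each of the 10 genes by library, in panels with their own axes from 0, for AKK (squares), Model (triangles) and Control (circles), with the mean and SD of 6 libraries as bars; the Nos2 Control bar reaches below 0. Nox1 sits between 7.15 and 19.3 FPKM in AKK, above the 1.81 to 6.74 FPKM of Control.

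The cytosolic partners of Nox1 were not called in any comparison. Noxo1, the organizer (ENSMUSG00000019320, chromosome 17, 24696234 to 24700529, plus strand), was at 15.3, 17.6 and 21.3 FPKM in AKK, 2.14, 14.9 and 16.8 FPKM in Model and 13.4, 16.5 and 20.8 FPKM in Control libraries (lowest, median, highest). Noxa1, the activator (ENSMUSG00000036805, chromosome 2, 25085667 to 25095149, minus strand), was at 25.8, 26.2 and 34.5 FPKM in AKK, 1.66, 20.7 and 31.0 FPKM in Model and 19.8, 24.5 and 29.9 FPKM in Control libraries. The ranges of the 3 groups overlapped for both genes, and the lowest value of each was that of Model_1337. The log2 changes in AKK against Control were 0.00 ± 0.32 for Noxo1 and 0.06 ± 0.39 for Noxa1 (SE, with edgeR adjusted p of 0.999 and 0.942). In Model against Control they were -0.40 ± 0.32 and -0.39 ± 0.39 (SE, with edgeR adjusted p of 0.388 and 0.494), and without Model_1337 they were -0.17 and -0.15. In AKK against Model they were 0.40 ± 0.32 and 0.45 ± 0.39 (SE, with edgeR adjusted p of 0.79 and 0.799). Of the exon bases of Noxo1 in GENCODE M21, 70.4% also lie in exons of Tbl3 on the other strand, and Tbl3 was at 7.19 to 10.7 FPKM. How the counting treated strand is not stated, which leaves Noxo1 values uncertain. The shared share of exon bases was 12.1% for Nox1 with Cstf2 and 3.09% for Noxa1 with Entpd8, both on the other strand. Cstf2 was at 4.94 to 8.22 FPKM and Entpd8 at 3.8 to 51.7 FPKM. The same doubt, over a smaller share of bases, therefore holds for Nox1 and Noxa1.

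A ratio within a library does not depend on its scaling. Nox1 was therefore also set against Noxo1, Noxa1 and Epcam, in ratios chosen after the levels were seen. These ratios reuse the Nox1 values above, so their p-values are no separate support for a Nox1 change. Nox1 alone did not pass in Model against Control (edgeR adjusted p 0.12). The FPKM ratio of Nox1 to Noxo1 was 0.468 to 0.965 in AKK, 0.42 to 1.21 in Model and 0.118 to 0.406 in Control libraries. Control libraries lay below every AKK and every Model library. How often ratios of other gene pairs separate the groups in this way was not counted. The mean log2 ratio was 1.82 higher in AKK than in Control and 1.52 higher in Model than in Control (exact two-sided permutation test, p = 0.002165 each, the smallest that 6 against 6 libraries can give, adjusted p 0.013 over 18 ratio comparisons). AKK and Model differed by 0.30 (exact permutation adjusted p 0.438). Against Noxa1 the log2 ratio was 1.77 higher in AKK and 1.68 higher in Model than in Control (exact permutation adjusted p 0.0195 and 0.0156). Against Epcam it was 2.14 higher in AKK and 1.39 higher in Model than in Control (exact permutation adjusted p 0.013 and 0.0156). The differences in these 3 ratios against Control held without any 1 library, at adjusted p of at most 0.039. Without both Model_1337 and Model_1341 the Nox1 to Noxa1 difference in Model against Control was 1.61 and did not pass (exact permutation adjusted p 0.0571). Without the 4 deepest libraries they were 1.26 to 1.67 in AKK and 1.44 to 1.79 in Model, and did not pass (exact permutation adjusted p 0.0714 to 0.161 in AKK and 0.052 in Model). The smallest exact p is 0.0238 for the 3 AKK libraries left and 0.00433 for the 5 Model libraries left, against 6 Control libraries.

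**Figure D2:**
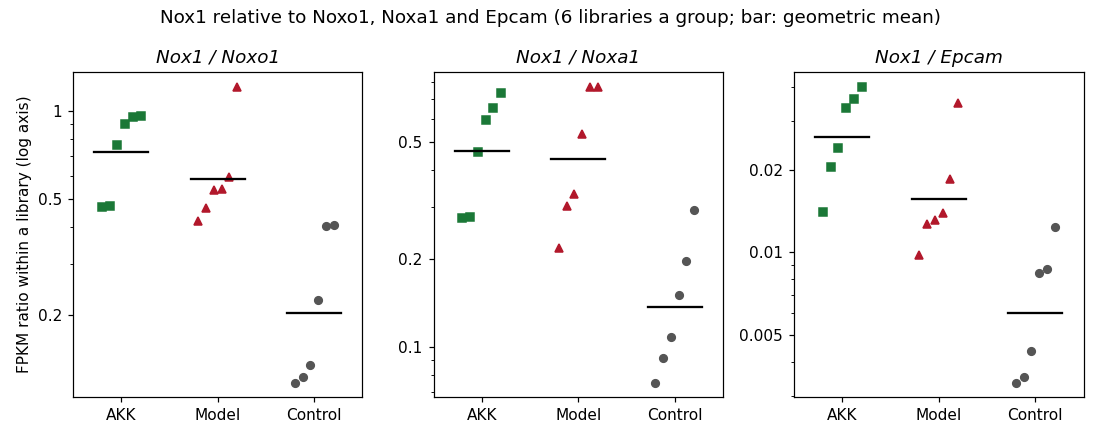
FPKM ratio of Nox1 to Noxo1, to Noxa1 and to Epcam within each library on log axes, for AKK, Model and Control, with the geometric mean of 6 libraries as a bar. For Noxo1 the Control libraries end at 0.406, below the lowest Model library at 0.42.

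Nox4, which pairs with Cyba and makes mostly hydrogen peroxide, was the member with the lowest level. The gene (ENSMUSG00000030562, chromosome 7, 87246096 to 87398710, plus strand) was at 0.254, 0.336 and 0.496 FPKM in AKK, 0.144, 0.247 and 0.556 FPKM in Model and 0.0761, 0.0919 and 0.251 FPKM in Control libraries (lowest, median, highest). AKK and Control just failed to overlap, and Control held 1 high library, Control_2287. The share of all genes without overlap was not counted at such low levels. Nox4 lay below the filter of 1 FPKM in 6 libraries, so its test came from a fit with a filter of 0.1 FPKM, used for this member alone. Every AKK and Model library reached 0.1 FPKM, while Control_2288, Control_2289 and Control_2668 did not (0.0761 to 0.0802 FPKM). Nox4 thus met the looser filter through the groups where it was higher, which limits its calls as support. In the fit with the 0.1 FPKM filter the log2 change was 1.41 ± 0.35 in AKK against Control and 1.25 ± 0.35 in Model against Control (SE, with edgeR adjusted p of 0.0375 and 0.0259). In that fit 3.76% (2.25% higher) and 15.3% (9.33% higher) of 21009 genes were called in these comparisons. AKK against Model gave 0.16 ± 0.34 (SE, with edgeR adjusted p of 0.944), where 0.00952% of genes were called. Leaving out each library in turn ended the AKK against Control call for 9 of 18 libraries (AKK_1302, AKK_1305, AKK_1306, AKK_1309, AKK_1310, Control_2285, Control_2286, Control_2288 and Control_2289, adjusted p 0.0524 to 0.0864). The Model against Control call ended without Model_1316, Model_1337, Control_2286, Control_2288 or Control_2289 (adjusted p 0.0503 to 0.0635). With limma on log2(FPKM + 1) neither call was made (adjusted p 0.0768 in AKK and 0.09 in Model against Control). The AKK call also ended without the 4 deepest libraries and with no filter (edgeR adjusted p 0.204 and 0.056), and the Model call in a fit of those 2 groups alone (edgeR adjusted p 0.0823). Of 10 genes of fibroblasts and smooth muscle, 3 were called higher in AKK against Control, the fibroblast genes Col1a1, Col1a2 and Lum, and 7 higher in Model against Control. Without Model_1337 these numbers were 4 and 5. These calls came from the fit with the filter of 1 FPKM. There 3.72% of all genes were called higher in AKK and 12.4% in Model against Control. The 10 summed to 1377 to 1924 FPKM in AKK, 1316.3 to 3515 FPKM in Model and 665 to 1831 FPKM in Control libraries, and their part in the Nox4 values was not tested.

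Of the 9 members tested, edgeR called 0 between Model and Control, where 20.1% of all genes were called. Unadjusted, 2 members, Nox1 and Cyba, had a p under 0.05 there, and DESeq2 and limma called 0. Between AKK and Model edgeR called 0 members, as did DESeq2 and limma, 0 had an unadjusted p under 0.05, and 0.0214% of all genes were called. The share of all genes called depended on the fit. With only the 2 groups compared, edgeR called 771 of 13403 genes in Model against Control and 2575 of 13479 in AKK against Control. Without Model_1337, 2115 of 13909 genes were called in AKK against Control.

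**Figure D3:**
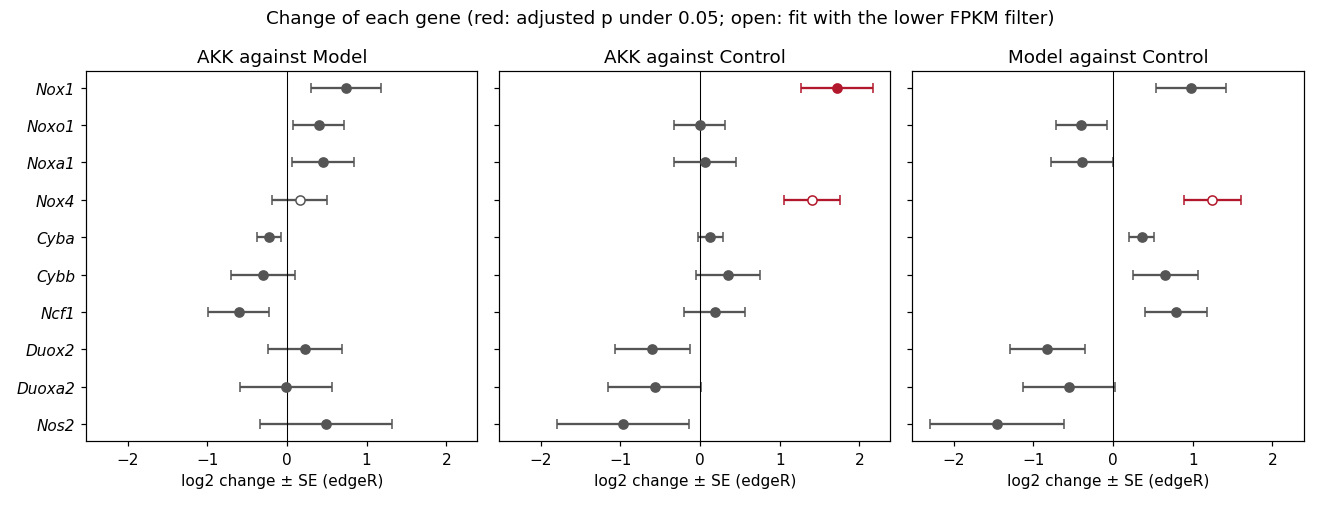
log2 change with its SE for the 10 genes in AKK against Model, AKK against Control and Model against Control (edgeR). Red points passed at an adjusted p under 0.05, which were Nox1 and Nox4 in AKK against Control and Nox4 in Model against Control; open points are Nox4, from the fit with the filter of 0.1 FPKM.

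The phagocyte oxidase genes Cyba, Cybb and Ncf1 did not pass the test in any comparison. Cyba, the membrane subunit shared by Nox1, Nox4 and Cybb (ENSMUSG00000006519, chromosome 8, 122424776 to 122432930, minus strand), was at 51.9, 55.9 and 73.0 FPKM in AKK, 50.8, 63.2 and 99.8 FPKM in Model and 42.3, 46.2 and 66.5 FPKM in Control libraries. Its ranges overlapped throughout, and its log2 changes were 0.13 ± 0.16 in AKK against Control, 0.36 ± 0.16 in Model against Control and -0.23 ± 0.16 in AKK against Model (SE, with edgeR adjusted p of 0.629, 0.111 and 0.76). Cybb, the catalytic subunit (ENSMUSG00000015340, chromosome X, 9435252 to 9487771, minus strand), was at 5.64, 6.33 and 7.93 FPKM in AKK, 0.852, 7.85 and 15.4 FPKM in Model and 1.92, 5.22 and 6.64 FPKM in Control libraries. Ncf1, the organizer (ENSMUSG00000015950, chromosome 5, 134220053 to 134229625, minus strand), was at 3.68, 4.30 and 6.31 FPKM in AKK, 1.19, 6.18 and 12.2 FPKM in Model and 1.46, 4.03 and 5.17 FPKM in Control libraries. The Model group was the most spread for both genes, with Model_1341 the lowest of all 18 libraries and Model_1337 the highest.

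In Model against Control the log2 change was 0.66 ± 0.40 for Cybb and 0.79 ± 0.39 for Ncf1 (SE, with edgeR adjusted p of 0.256 and 0.153). Without Model_1341 both passed, at 0.89 and 0.998 (edgeR adjusted p 0.0275 each). That was the 1 call for each gene when each of the 18 libraries was left out in turn. Those fits gave 0.40 to 0.89 for Cybb and 0.54 to 0.998 for Ncf1 (edgeR adjusted p up to 0.513 and 0.349). In AKK against Control the log2 changes of Cybb and Ncf1 were 0.35 ± 0.40 and 0.18 ± 0.38, and in AKK against Model -0.30 ± 0.40 and -0.61 ± 0.38 (SE, with edgeR adjusted p of 0.613, 0.798, 0.874 and 0.758). The 14 macrophage and monocyte genes listed summed to 491 to 759 FPKM in AKK, 148 to 1369 FPKM in Model and 183 to 552 FPKM in Control libraries. As for Cybb, the lowest sum was that of Model_1341 and the highest that of Model_1337. Of the 14, 5 were called higher in Model against Control, 1 without Model_1337, and edgeR called 0 in AKK against Control or AKK against Model (5 and 0 at an unadjusted p under 0.05; DESeq2 called 3 and 0, limma 0 and 0). Without Model_1337, 1 was called higher in AKK against Control. The 9 neutrophil genes listed summed to 21.2 to 197.7 FPKM in AKK, 18.1 to 896 FPKM in Model and 4.44 to 110 FPKM in Control libraries, with Elane, a granule protease, at 0 in every Model and Control library. Of 6 tested neutrophil genes 2 were called higher in Model against Control, and 0 without Model_1337. The 8 B cell genes listed summed to 16.8 to 68.9 FPKM in AKK, 8.60 to 179 FPKM in Model and 3.42 to 7.63 FPKM in Control libraries, and 4 of 6 tested were called higher in AKK and 6 in Model against Control. Without Model_1337 these numbers were 5 and 5, and the B cell gene Blk was not tested there because it no longer passed the FPKM filter. Of all tested genes, 12.4% were called higher in Model and 3.72% higher in AKK against Control. The part of macrophages, monocytes, neutrophils and B cells in the Cybb and Ncf1 values was not tested.

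**Figure D4:**
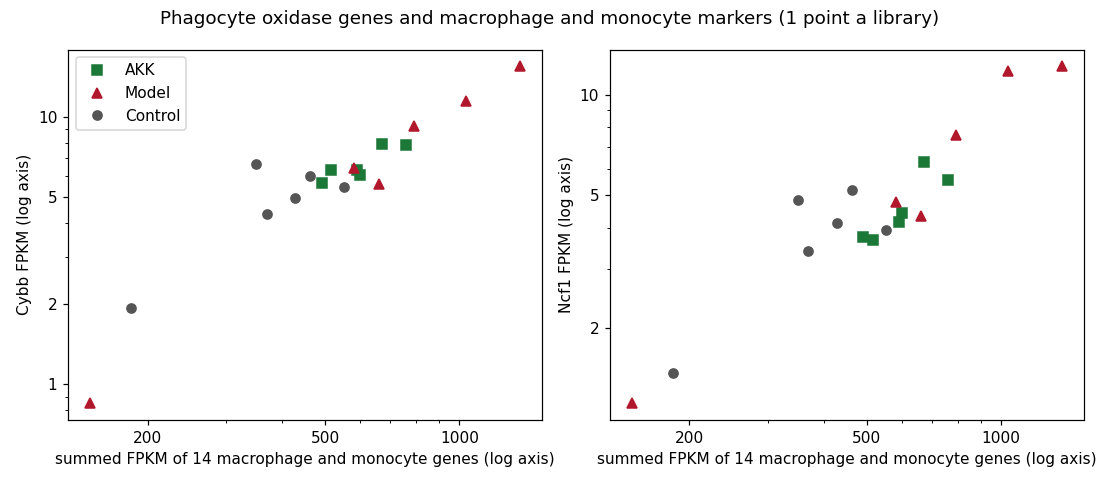
Cybb and Ncf1 FPKM against the summed FPKM of 14 macrophage and monocyte genes, 1 point a library on log axes, for AKK, Model and Control. Model_1341 lies at the low end of both axes, at 0.852 FPKM of Cybb, and Model_1337 at the high end, at 15.4 FPKM.

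Cybb and Ncf1 moved together over the 18 libraries, with Pearson's r of 0.96 and Spearman's rho of 0.90 on log2(FPKM + 1) (permutation p = 2e-05 each, the smallest the resamples can give, adjusted p 4e-05 over 6 relations). Without the 2 libraries farthest from the median Cybb level, r was 0.95. Within AKK, Model and Control r was 0.92, 0.98 and 0.99 (exact permutation p = 0.0556, 0.00278 and 0.0111, n = 6 each). The FPKM ratio of Ncf1 to Cybb was 0.584 to 0.795 in AKK, 0.74 to 1.39 in Model and 0.719 to 0.86 in Control libraries. The log2 ratio was lower by 0.39 in AKK than in Model (exact permutation p = 0.0108, adjusted p 0.0278), with the highest ratio in Model_1341. That difference did not pass without any 1 of AKK_1302, AKK_1305, AKK_1306, Model_1340 or Model_1341 (exact permutation adjusted p 0.0557 each). Of the Ncf1 exon bases, 11.1% also lie in exons of Gtf2ird2 on the other strand.

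Duox2 and Duoxa2 were not called in any comparison, and their levels were most spread among Control libraries. Duox2, the oxidase (ENSMUSG00000068452, chromosome 2, 122279247 to 122298449, minus strand), was at 28.1, 39.4 and 52.7 FPKM in AKK, 8.56, 29.6 and 52.3 FPKM in Model and 16.1, 40.2 and 127.0 FPKM in Control libraries. Duoxa2, its maturation factor (ENSMUSG00000027225, chromosome 2, 122298900 to 122302885, plus strand), was at 21.9, 43.8 and 60.9 FPKM in AKK, 14.6, 36.6 and 73.3 FPKM in Model and 5.71, 53.4 and 141.6 FPKM in Control libraries. Control held both the widest range and the highest value of each gene, and the AKK range lay inside it. The highest Control level was 7.89 times the lowest for Duox2 and 24.8 times for Duoxa2, against 1.88 and 2.78 times in AKK and 6.12 and 5.03 times in Model.

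The log2 changes of Duox2 were -0.60 ± 0.47 in AKK against Control, -0.83 ± 0.47 in Model against Control and 0.23 ± 0.46 in AKK against Model (SE, with edgeR adjusted p of 0.438, 0.215 and 0.929). Those of Duoxa2 were -0.57 ± 0.58, -0.55 ± 0.58 and -0.02 ± 0.58 in the same comparisons (SE, with edgeR adjusted p of 0.561, 0.519 and 0.997). The sign for Duoxa2 in AKK against Control and in AKK against Model turned on log2(FPKM + 1). Relative to Epcam, Duox2 differed by 0.06 on the log2 scale in AKK against Control and by -0.14 in Model against Control (exact permutation adjusted p 0.905 and 0.887). Of the Duoxa2 exon bases, 42.8% also lie in exons of Duoxa1 on the other strand, and Duoxa1 was at 0.289 to 0.606 FPKM in AKK, 0.364 to 4.38 FPKM in Model and 0.07 to 2.19 FPKM in Control libraries.

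Nos2, the inducible nitric oxide synthase (ENSMUSG00000020826, chromosome 11, 78920787 to 78960254, plus strand), had the widest spread of the 10 genes. It was at 2.05, 6.81 and 14.0004 FPKM in AKK, 1.72, 4.28 and 8.75 FPKM in Model and 0.468, 6.41 and 39.5 FPKM in Control libraries. The Control libraries spanned 84.5 times and enclosed all AKK and Model libraries. The log2 change was -0.97 ± 0.83 in AKK against Control, -1.46 ± 0.84 in Model against Control and 0.49 ± 0.83 in AKK against Model (SE, with edgeR adjusted p of 0.484, 0.223 and 0.911). Without Control_2289, the library with the most Nos2, these changes against Control were smaller, at -0.19 and -0.68.

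Duox2, Duoxa2 and Nos2 were high and low in the same libraries. Over 18 libraries r was 0.89 and rho 0.93 between Duox2 and Duoxa2, and 0.86 and 0.91 between Duox2 and Nos2 (permutation p = 2e-05 each, the smallest the resamples can give, adjusted p 4e-05 over 6 relations). Without Model_1337 and Control_2289, the 2 farthest from the median Duox2 level, r was 0.90 and 0.92. Within AKK, Model and Control r was 0.97, 0.94 and 0.96 between Duox2 and Duoxa2 (exact permutation p = 0.00556, 0.0194 and 0.00278, n = 6 each). Between Duox2 and Nos2 it was 0.98 in AKK, 0.58 in Model and 0.98 in Control (exact permutation p = 0.00556, 0.222 and 0.00556, n = 6 each). For Nox1, r was 0.47 with Noxo1, 0.47 with Noxa1 and 0.45 with Duox2 (permutation adjusted p 0.0611 each), and -0.06, -0.06 and 0.05 without Model_1337 and Control_2668. Within groups Nox1 and Duox2 had r of 0.89 in AKK, 0.92 in Model and 0.64 in Control (exact permutation p = 0.025, 0.075 and 0.181, n = 6 each). With Noxo1 it was 0.46, 0.86 and 0.04 in the same order (exact permutation p = 0.361, 0.283 and 0.908), and with Noxa1 -0.36, 0.84 and 0.46 (exact permutation p = 0.464, 0.286 and 0.333).

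**Figure D5:**
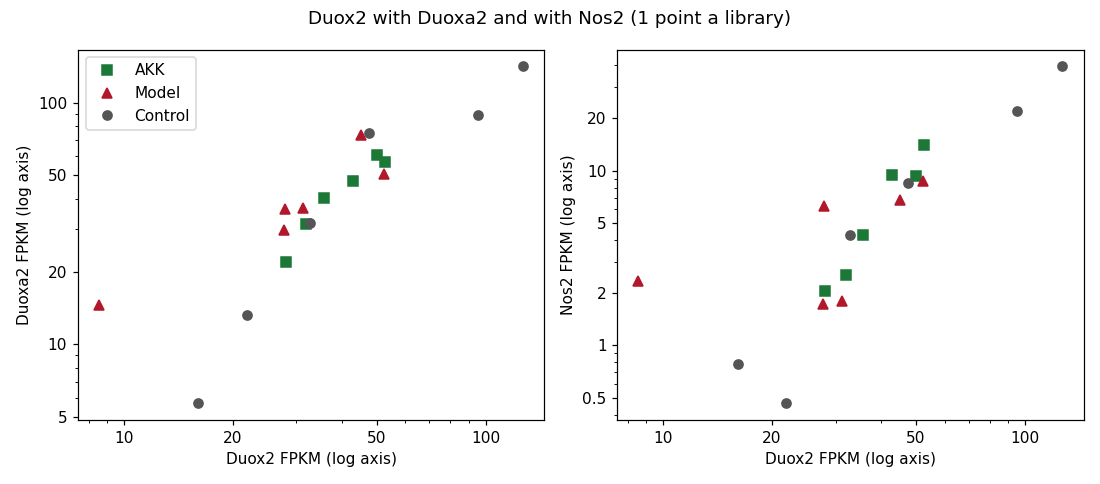
Duoxa2 and Nos2 FPKM against Duox2 FPKM, 1 point a library on log axes, for AKK, Model and Control. The Control circles run from 16.1 to 127.0 FPKM of Duox2, from the low to the high end of both plots, with AKK between 28.1 and 52.7 FPKM.

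In order of median FPKM, AKK had Cyba, Duoxa2, Duox2, Noxa1, Noxo1, Nox1, Nos2, Cybb, Ncf1 and Nox4. In Model, Cybb stood at the sixth place and Nox1 at the seventh, and Ncf1 came before Nos2. In Control, Duoxa2 led and Nox1 was the ninth of the 10. Neighbours in these orders overlapped in their ranges except in 2 cases. Nox4 lay below every other member in each of the 18 libraries, and in AKK every Noxa1 level was above every Noxo1 level.

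The counts in the gene lists that follow stand beside 6.2% of all tested genes called in AKK against Control (3.72% higher, 2.48% lower) and 20.1% in Model against Control (12.4% higher, 7.67% lower). Those shares are from the fit of all 18 libraries, and fits of only 2 groups gave other shares, as above. Of 8 other NADPH oxidase genes listed, 5 were tested, with a median log2 change of 0.32 in Model against Control, where that of all genes was 0.00. The oxidase-activating GTPase Rac2 of blood cells rose in Model against Control by 1.05 ± 0.34 (SE, with edgeR adjusted p of 0.0383), and did not pass without any 1 of 9 libraries, Model_1337 among them (log2 change 0.82). The ubiquitous Rac1 fell by 0.30 ± 0.09 in Model and by 0.34 ± 0.09 in AKK against Control (SE, with edgeR adjusted p of 0.0266 and 0.0318), calls that ended without 4 and 8 of the 18 libraries in turn. Between AKK and Model edgeR, DESeq2 and limma called 0 of the 5, and 0 had an unadjusted p under 0.05. The smallest p there were those of Rac2 (log2 change -0.59 ± 0.34) and Cybc1, a chaperone of the Cybb complex (-0.14 ± 0.09, SE, edgeR adjusted p 0.748 and 0.76). Duox1, the other dual oxidase, was at 0.0298 to 0.0872 FPKM in AKK, 0 to 4.04 FPKM in Model and 0 to 0.107 FPKM in Control libraries, with its highest level in Model_1337.

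A list of 13 genes chosen for the supply of NADPH, the oxidases' electron donor, had 14 tested entries (Nnt has 2). NADPH itself was not measured, nor what each gene adds to it. Of the 14 entries, 5 fell and 0 rose in Model against Control, with a median log2 change of -0.31, and 3 fell without Model_1337. Mthfd1, a folate enzyme, fell by 0.66 ± 0.12, and the mitochondrial malic enzyme Me2 by 1.02 ± 0.25 (SE, with edgeR adjusted p of 0.00341 and 0.0108). Nadk2, the mitochondrial NAD kinase, fell by 0.44 ± 0.14 and Pgd of the pentose phosphate pathway by 0.48 ± 0.15 (SE, with edgeR adjusted p of 0.0318 and 0.0335), which ended without any 1 of 2 and 6 libraries. Me2 was the 1 gene called in AKK against Control, lower by 0.85 ± 0.25 (SE, with edgeR adjusted p of 0.0498), and not called without any 1 of 14 libraries; without Model_1337, 4 of these genes were called lower. Between AKK and Model edgeR, DESeq2 and limma called 0, with 2 at an unadjusted p under 0.05: Mthfd1 and Idh2, an isocitrate dehydrogenase, at 0.30 ± 0.12 and 0.25 ± 0.11 (log2 ± SE, edgeR adjusted p 0.727 each).

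Genes around nitric oxide changed in both directions. Of 18 tested, 3 rose and 3 fell in Model against Control, with a median log2 change of 0.18. Ddah2, which breaks down a natural inhibitor of nitric oxide synthases, rose by 0.52 ± 0.11, and the endothelial synthase Nos3 by 0.98 ± 0.22 (SE, with edgeR adjusted p of 0.00586 and 0.00777). The arginase Arg1, which competes for arginine, had a log2 change of 5.78 ± 1.41 (SE, with edgeR adjusted p of 0.011) that rested on 372 FPKM in Model_1337, and was 0.81 and not called without it (edgeR adjusted p 0.0773). In AKK against Control 2 of the 18 rose, Nos3 by 0.84 ± 0.22 and Ddah2 by 0.41 ± 0.11 (SE, with edgeR adjusted p of 0.0327 and 0.0368), calls that ended without any 1 of 8 libraries each. Without Model_1337, 2 rose and 2 fell there. Between AKK and Model edgeR, DESeq2 and limma called 0, with 2 at an unadjusted p under 0.05, among them Arg1 at -5.02 ± 1.35 (log2 ± SE, edgeR adjusted p 0.714).

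Among genes that handle superoxide and peroxide, 3 of 18 tested rose and 1 fell in Model against Control, with a median log2 change of -0.09, and 2 rose and 1 fell without Model_1337. That share is near the 20.1% of all genes called. The secreted enzymes Sod3, a superoxide dismutase, and Gpx3, a glutathione peroxidase, rose by 1.31 ± 0.31 and 0.60 ± 0.16 (SE, with edgeR adjusted p of 0.0091 and 0.0158). The peroxiredoxins Prdx4 and Prdx1 changed by 0.51 ± 0.16 and -0.49 ± 0.14 (log2 ± SE, edgeR adjusted p 0.0372 and 0.0262), calls that ended without any 1 of 8 and 4 libraries. In AKK against Control Gpx3 rose by 0.69 ± 0.16 and Sod3 by 1.09 ± 0.30 (SE, with edgeR adjusted p of 0.0203 and 0.0421). For both, all AKK libraries lay above all Control libraries, as they did for 7.61% of all tested genes. Gpx3 did not pass without Control_2286, and Sod3 without any 1 of 11 libraries. Without Model_1337, 2 rose and 2 fell in AKK against Control. Between AKK and Model edgeR, DESeq2 and limma called 0 of 18, and 0 had an unadjusted p under 0.05. The smallest p there were those of Prdx5 and Xdh, xanthine dehydrogenase, at -0.25 ± 0.12 and -0.46 ± 0.24 (log2 ± SE, edgeR adjusted p 0.727 and 0.733).

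Of 18 listed cytokines known to induce Duox2 or Nos2, their receptors and transcription factors, 14 were tested, and Irf1, an interferon-induced transcription factor that binds the Nos2 promoter, was lower in both groups than in Control. Irf1 was at 24.0, 33.8 and 40.4 FPKM in AKK, 22.2, 37.0 and 43.9 FPKM in Model and 42.8, 58.0 and 87.8 FPKM in Control libraries (lowest, median, highest). It fell by 0.96 ± 0.20 in AKK and by 0.75 ± 0.20 in Model against Control (SE, with edgeR adjusted p of 0.0127 and 0.0149), and passed without each library in turn. Of the 14, 2 were called in AKK against Control and 1 in Model against Control, all lower. Between AKK and Model edgeR, DESeq2 and limma called 0, and 0 had an unadjusted p under 0.05; Nfkb1 and Myd88 had the smallest p, at -0.25 ± 0.15 and -0.24 ± 0.17 (log2 ± SE, edgeR adjusted p 0.753 and 0.772).

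The tested genes with levels most like those of 4 members were taken by Pearson's r of log2(FPKM + 1) over the 18 libraries, which share depth and tissue mix, as a description with no test. For Nox1 they were Atp8a1 (r = 0.93), Tmprss2 (0.88), Cmtm8 (0.85), Capn5 (0.85) and Clca3b (0.85). For Duox2 they were Wars (0.93), Tmem181c-ps (0.90), Gpx2 (0.89), Duoxa2 (0.89) and Ywhah (0.89). For Nos2 they were Tnip3 (0.91), Tnf (0.90), Duoxa2 (0.89), Duox2 (0.86) and Hk2 (0.84). For Cybb they were Ms4a6b (0.97), Ms4a6c (0.97), Pik3ap1 (0.96), Myo1f (0.96) and Ctsc (0.96). Gpx2, the epithelial glutathione peroxidase, was at 119 to 182 FPKM in AKK, 53.8 to 136 FPKM in Model and 53.7 to 384 FPKM in Control libraries. The cytokine Tnf was at 1.07 to 4.72 FPKM in AKK, 0.957 to 2.99 FPKM in Model and 1.06 to 14.7 FPKM in Control libraries, so that, as for Nos2, the highest level was in Control.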

How the data were processed

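Colon RNA-seq was analysed from 1 deposited table with 2 values for each gene and library. Per the file headers, the authors gave FPKM, and the deposited estimated counts are whole numbers that sum to different totals in each library. Libraries were strand-marked (dUTP), per the labels' protocols. The tools named, per the submitters' processing notes, are StringTie 2.1.6, HISAT2 2.2.1 and cutadapt 1.9, with build mm10, and edgeR and DESeq2 with no stated role. Counts of 4, 8 and 12 occurred 2.36, 1.74 and 1.36 times as often as adjacent counts, so 1 fragment may add several counts and small counts carry less information than their size.

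Genes with at least 1 FPKM in 6 libraries (14007) were fitted over all 18 libraries with edgeR 4.0.16 (TMM scaling, quasi-likelihood test, Benjamini-Hochberg adjustment over all tested genes, threshold 0.05). Nox4 was taken from a fit with a filter of 0.1 FPKM. DESeq2 1.42.0, limma 3.58.1 on log2(FPKM + 1) and on log2(FPKM + 0.1), other scalings and filters, and fits without libraries were alternatives, in R 4.3.3. The edgeR step was tested on simulated data. Ratios and correlations used permutation tests (scipy 1.17.1, 100000 resamples over 18 libraries, exact otherwise). The named genes were the 10 members and, in each pathway list and comparison, up to 4 called genes with the smallest p, or 2 where 0 were called; Gpx2 and Tnf levels were added as genes most like a member. The members and the 12 gene lists (5 of pathways, 7 of markers) were chosen with earlier results of these data known, and so were the ratios. Totals per library ranged from 53873744 to 82589848. Promoter windows came from RefSeq (GRCm38.p6) and exon overlaps from GENCODE M21. No pair of libraries held identical values. Some genes that the rule names are not reported here.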

Additional observations from a re-analysis of the deposited data

Results flagged for a closer look

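Among 30 groups of 6 libraries (10 genes in each of 3 groups), 4 held 1 library far from the others by Dixon's test at the 0.05 level, a test that chance alone passes in about 0.05 of groups. Noxa1 was at 34.5 FPKM in AKK_1305, against 25.8 to 28.7 FPKM in the other AKK libraries. Noxo1 was at 2.14 FPKM in Model_1337, the library with the most squamous epithelium RNA and the least Epcam, against 12.2 to 16.8 FPKM in the other Model libraries. Cyba was at 99.8 FPKM in Model_1340, against 50.8 to 68.3 FPKM in the other Model libraries. Nox4 was at 0.251 FPKM in Control_2287, against 0.0761 to 0.127 FPKM in the other Control libraries.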

How the results depend on the processing

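No paired analysis was possible because the groups share no library numbers. Of the alternative values computed, 1225 kept their direction and side of the threshold, or stayed close to the main value, 42 lost a call, 7 gained one, 43 turned direction and 15 counts moved. The number of members called in Model against Control, 0 in the main analysis, was 1 without Model_1337 and Model_1341, 1 with no filter, 1 with the 0.1 FPKM filter, and 0 to 2 when each library was left out. In AKK against Control, where the main number was 1, it was 0 without the 4 deepest libraries, 0 with no filter, 2 with the 0.1 FPKM filter, and 0 to 1 when each library was left out. In AKK against Model it was 0 throughout. These log2 changes turned direction in AKK against Model: Cybb with limma (0.00818 and 0.106 with 1 and 0.1 added), Duoxa2 with library totals (0.0842), with limma (0.17 and 0.18), without Model_1337 and Model_1341 (0.14) and with no filter (0.00901), and Nos2 without the 4 deepest libraries (-0.49). In AKK against Control they were Noxo1 with library totals (0.10), upper-quartile scaling (0.0125) and limma (0.10 and 0.11), Ncf1 without the 4 deepest libraries (-0.0735), Duoxa2 with limma (0.13 and 0.16) and Nos2 with limma and 0.1 added (0.15). Without the 4 deepest libraries the log2 ratio differences of Nox1 to Noxo1 and to Noxa1 in AKK against Model were -0.18 and -0.52, and those of Duox2 to Epcam were -0.0809 in AKK against Model and -0.29 in AKK against Control. Leaving out each library gave -0.20 to 0.33 for Duoxa2 in AKK against Model, -0.0146 to 0.11 for Noxa1 and -0.0749 to 0.0600 for Noxo1 in AKK against Control. For the log2 ratios it gave -0.21 to 0.38 for Duox2 to Epcam in AKK against Control, -0.41 to 0.18 for the same in Model against Control, and -0.11 to 0.26 for Nox1 to Noxa1 in AKK against Model. The cause of these changes was not tested.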
